A study of Mus musculus with 16 samples.

Results

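DES was compared with vehicle in the seminal vesicles (SVs) of mice without ERα, using the 4 αERKO-DES and the 4 αERKO-veh samples out of 16 SV samples measured by RNA-seq at week 5. The genes compared were those with a mean above 1 FPKM (the number of fragments scaled to the length of the transcript and to the size of the library) in either of these groups, which were 14489 of the 31274 genes in the table. They were then separated into genes that follow skeletal muscle markers, genes that follow fat markers, genes that follow both and genes that follow neither. αERKO mice are null for *Esr1* in every tissue and were bred from heterozygous C57Bl/6 parents. All pups were male and were injected under the skin on days 1 to 5 of life, with 2 µg of DES per day in corn oil in the DES groups or with corn oil alone in the vehicle groups. The SV was cut away from the anterior prostate when it was collected. The WT-veh and WT-DES groups, also of 4 samples each, were wild-type C57Bl/6 males with the same injections, and enter the comparison between genotypes. Their mothers were obtained pregnant from Charles River, so genotype and source of the mice cannot be told apart in that comparison. The methods describe single mice, 4 in each αERKO group and 4 in WT-veh, but 3 pools of mice in WT-DES, for which the table holds 4 columns.

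DES (diethylstilboestrol) is a synthetic oestrogen that binds both oestrogen receptors, ERα (the *Esr1* product) and ERβ (the *Esr2* product). Ligand-bound receptors act in the nucleus, where they bind oestrogen response elements or other transcription factors and change the transcription of nearby genes. The SV is a gland of the male reproductive tract. Its androgen-dependent secretory epithelium makes most of the seminal fluid proteins and is wrapped in smooth muscle, with connective tissue, vessels and nerves around it. The comparison asks what neonatal DES leaves behind at week 5 in a gland that lacks ERα.

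The labels were checked on *Esr1* and on markers of the gland. *Esr1* was at 1.30, 1.59, 1.75 and 1.43 FPKM in αERKO-veh and at 0.91, 1.15, 1.51 and 1.64 FPKM in αERKO-DES, below every WT sample, whose lowest value was 2.81 FPKM. The 2 αERKO groups overlapped in *Esr1* (log2 change −0.14, limma adjusted p = 0.669). *Esr2* was too low to be tested, at 0.74, 1.12, 1.05 and 0.83 FPKM in αERKO-veh and at 0.57, 0.62, 0.55 and 0.49 FPKM in αERKO-DES. The 12 SV secretory genes took 8.23% to 13.6% of the summed FPKM of an αERKO sample. The FPKM values of a sample summed to 479045 to 558591 in αERKO-veh and to 531467 to 622477 in αERKO-DES. By the smallest steps between low values, a rough guide to depth, 1 fragment on a transcript of 1 kb was worth 0.0564 to 0.0625 FPKM in the αERKO libraries.

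Of the transcripts past the thresholds in αERKO SVs most were lower after neonatal DES, and genes of skeletal muscle and fat led them. Of the 14489 genes tested, 300 (2.07%) were DEGs, of which 284 (1.96%) were lower and 16 (0.11%) higher in αERKO-DES than in αERKO-veh. A DEG had an adjusted p no higher than 0.05 by limma and mean FPKM values that differed by a factor of 1.5 or more, and log2 changes are of log2(FPKM + 1), which understates the change of low genes. In 256 of the 284 lower DEGs all 4 αERKO-DES samples were below all 4 αERKO-veh samples, and in 14 of the 16 higher DEGs all 4 were above. Over all tested genes the first pattern was seen in 6.09% and the second in 7.01%. Across all tested genes the log2 change had a median of 0.036 and was below 0 in 6337. As deposited, the excess of lower genes thus held for the DEGs and not for all genes. With samples scaled to equal totals without the top 20 genes, that median was −0.082, so the direction over all genes depended on the scaling.

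The number of DEGs depended on single samples. Adjusted p was above 0.03 for 297 of the 300, and 3902 tested genes were at or under 0.05 before adjustment. Without αERKO-veh sample 2 there were 3 DEGs, without αERKO-veh sample 4, αERKO-DES sample 1 or αERKO-DES sample 3 there were 2, and without αERKO-DES sample 2 there were 58. Without αERKO-veh sample 1 there were 690, which included 297 of the 300. A fit of the 8 αERKO samples alone gave 28 DEGs, of which 22 were shared and 1 was higher, and quantile normalization gave 5, of which 60% were higher against 5.33% of the 300. *Taf10*, which was higher, and *Car3*, which was lower, passed in 21 of 22 alternative settings. Every gene list described below held 0 lower DEGs under quantile normalization and without αERKO-veh sample 2, αERKO-veh sample 4, αERKO-DES sample 1 or αERKO-DES sample 3, apart from the list that holds *Car3*.

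A gene was said to follow skeletal muscle or fat where its deviations from the group means correlated with those of the mean of 16 skeletal muscle markers or of 10 adipose markers at a Pearson's r above 0.5 over the 16 samples. Deviations within groups carry nothing of the difference between groups. Of the 300 DEGs, 146 followed muscle, 53 followed fat, 10 followed both and 91 followed neither. The 209 that followed either were 69.7% of the DEGs, against 9.81% of all tested genes. All 146 DEGs that followed muscle were lower, with a median fold of 10.4, and so were 52 of the 53 that followed fat, with a median fold of 3.36 for those lower. Of the 91 DEGs that followed neither, 76 were lower, with a median fold of 2.11, and 15 were higher. The plot of the change against the level shows the muscle group along the lower edge and the 91 near the centre line.

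**Figure D1:**
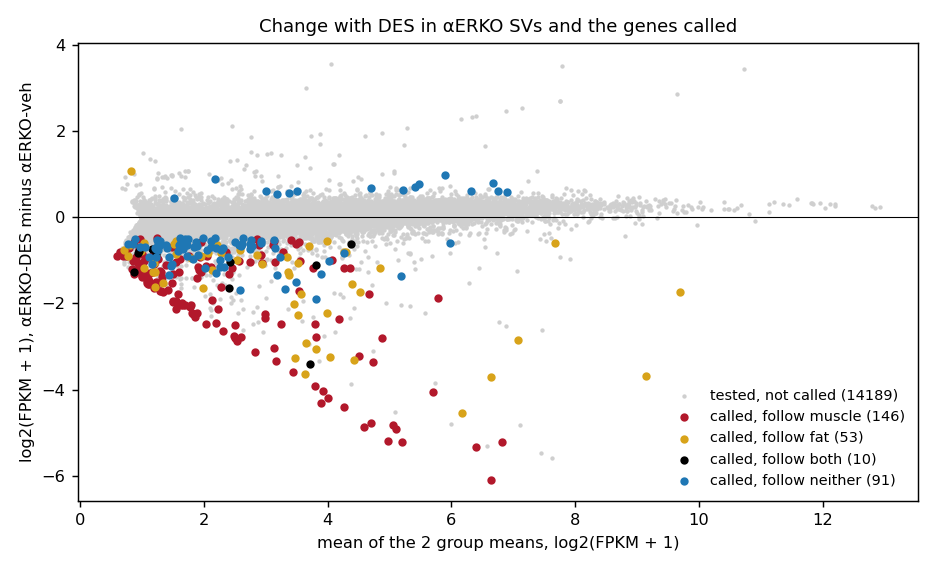
Change with DES in αERKO SVs (vertical axis, difference of mean log2(FPKM + 1), αERKO-DES minus αERKO-veh) against the level of each gene (horizontal axis, log2(FPKM + 1) of the mean of the 2 group means) for 14489 tested genes. Grey points are tested genes that were not DEGs, and coloured points are the 300 DEGs by whether they follow skeletal muscle (146), fat (53), both (10) or neither (91). The largest changes are of genes that follow muscle, down to −6.09.

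The 16 skeletal muscle markers differed widely between the vehicle samples. Their mean log2(FPKM + 1) was 3.62, 6.35, 6.88 and 6.09 with vehicle in αERKO and 2.19, 2.29, 1.84 and 1.71 with DES. All 4 αERKO-DES samples were below all αERKO-veh samples, and αERKO-veh sample 1 lay nearest to them. In the wild type the same mean was 2.43, 2.03, 3.28 and 6.24 in WT-veh and 2.38, 1.35, 1.91 and 2.35 in WT-DES, so that WT-veh sample 4 was also high. The 10 adipose markers had a mean log2(FPKM + 1) of 3.85, 5.38, 2.23 and 4.07 in αERKO-veh and of 1.82, 1.98, 1.60 and 1.05 in αERKO-DES. Their order among the αERKO-veh samples was not that of muscle: sample 3 had the highest muscle and the lowest fat markers. Pearson's r of the muscle and adipose means within groups was 0.249 over the 16 samples, a description with no test. Summed over the list, FPKM ranged from 811 to 3121 for the muscle markers in αERKO-veh and from 600.2 to 872 in αERKO-DES, an overlap that comes from *Acta1* and *Tnnc2*, which stayed high. For the adipose markers the sum ranged from 104 to 1177 in αERKO-veh and from 26.1 to 72.6 in αERKO-DES. Both means were lower in all 4 αERKO-DES samples and so moved with every lower gene below. Their part in the other differences was not tested. The fit with covariates given further on is no such test, because both means separate the αERKO groups without overlap.

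**Figure D2:**
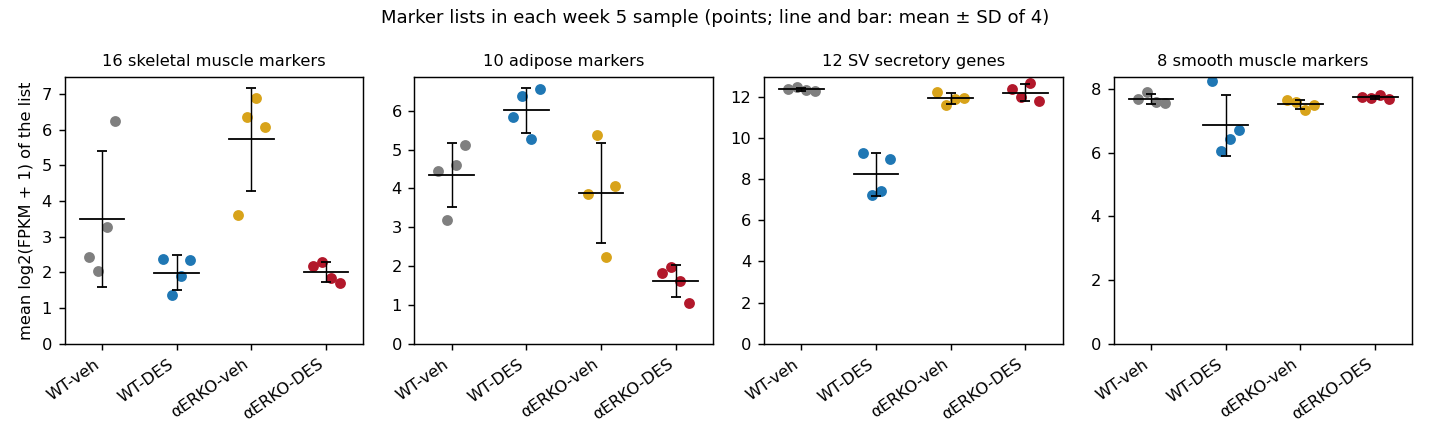
Mean log2(FPKM + 1) of 16 skeletal muscle, 10 adipose, 12 SV secretory and 8 smooth muscle genes in each of the 16 week 5 samples. Points are samples, horizontal lines are means of 4 and bars are SDs. The αERKO-DES samples lie at 1.71 to 2.29 for skeletal muscle and at 1.05 to 1.98 for fat, below all αERKO-veh samples in both, while the αERKO groups overlap for SV secretory genes. For smooth muscle the αERKO-DES samples lie at 7.68 to 7.81, just above the αERKO-veh samples at 7.33 to 7.66.

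Contractile genes of skeletal muscle had the largest falls on the log2 scale, led by *Tnnt3*. Skeletal muscle fibres are built from sarcomeres, in which myosin thick filaments pull on actin thin filaments when calcium binds the troponin complex. *Tnnt3*, which encodes the fast troponin T, was at 22.6, 223, 347 and 195 FPKM in αERKO-veh and at 1.05, 2.49, 0.68 and 0.39 FPKM in αERKO-DES. The 2 groups did not overlap, and the 3 highest αERKO-veh samples ranged from 195 to 347 FPKM. The change of *Tnnt3* was −6.09 on the log2 scale (SE 1.14, limma adjusted p = 0.032). *Tnni2*, the fast troponin I, was at 19.04, 185, 305 and 151 FPKM in αERKO-veh and at 2.23, 2.91, 1.57 and 1.05 FPKM in αERKO-DES (log2 change −5.33, limma adjusted p = 0.032). It had the order of samples that *Tnnt3* had in αERKO-veh. As the tissue was measured in bulk, fewer cells of a type and less RNA per cell cannot be told apart here or below.

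In the thick filament list 9 of 11 tested members were lower and 0 higher, with a median log2 change of −2.78 against 0.036 over all genes, where 1.96% were called lower. The count was 3 in the fit of the 8 αERKO samples alone, and 0 under quantile normalization or without αERKO-veh sample 2, among the settings named above. *Mylpf*, the fast regulatory myosin light chain, was at 27.1, 249.99, 384 and 219 FPKM in αERKO-veh and at 3.88, 4.66, 2.96 and 2.00 FPKM in αERKO-DES (log2 change −5.20, limma adjusted p = 0.032). *Myl1*, the fast essential light chain, was at 8.36, 67.4, 108 and 59.5 FPKM in αERKO-veh and at 0.44, 0.44, 0.16 and 0 FPKM in αERKO-DES (log2 change −5.18, limma adjusted p = 0.032). Both light chains fell in every αERKO-DES sample below the lowest αERKO-veh sample. *Myh1*, the myosin heavy chain of fast 2X fibres, was at 3.91, 41.8, 64.8 and 34.03 FPKM in αERKO-veh and at 0.19, 0.55, 0.14 and 0.13 FPKM in αERKO-DES, and changed by −4.41 on the log2 scale (limma adjusted p = 0.032). *Mybpc1*, a myosin-binding protein of slow fibres, was at 5.89, 27.4, 41.2 and 21.9 FPKM in αERKO-veh and at 2.77, 2.87, 1.43 and 1.46 FPKM in αERKO-DES. It was 11.3-fold lower in mean FPKM.

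Z disc, calcium and energy genes of muscle fell alongside. Of the Z disc and titin list 7 of 10 were lower, of the calcium release and uptake list 6 of 12, and of the muscle energy list 8 of 12, with 0 higher in each, against 1.96% of all tested genes called lower. In the order given the lists held 1, 0 and 2 lower DEGs in the fit of the 8 αERKO samples alone, and 0 each under quantile normalization or without αERKO-veh sample 2. *Ttn*, the giant elastic protein of the sarcomere, was at 1.10, 20.8, 28.1 and 12.7 FPKM in αERKO-veh and at 0.24, 0.23, 0.1 and 0.05 FPKM in αERKO-DES. *Tcap*, which anchors titin at the Z disc, was at 7.92, 81.6, 111 and 64.5 FPKM in αERKO-veh and at 0.88, 0.91, 0.46 and 0.24 FPKM in αERKO-DES. These values leave little of either transcript in αERKO-DES, with limma adjusted p of 0.0325 for *Ttn* and 0.032 for *Tcap*. *Atp2a1*, the calcium pump of fast fibres, was at 4.35, 82.9, 127 and 70.2 FPKM in αERKO-veh and at 0.19, 0.4, 0.12 and 0.13 FPKM in αERKO-DES. *Ryr1*, the calcium release channel, was at 0.23, 3.89, 5.36 and 2.59 FPKM in αERKO-veh and at 0.03, 0.02, 0.03 and 0.01 FPKM in αERKO-DES. *Casq1*, the calcium store protein of fast fibres, was at 11.7, 46.8, 61.3 and 38.5 FPKM in αERKO-veh and at 6.68, 6.78, 0.92 and 0.74 FPKM in αERKO-DES. For all 3 calcium genes the groups did not overlap, and the 2 lowest αERKO-DES samples of *Casq1* were samples 3 and 4. *Mb*, the oxygen store myoglobin, was at 14.4, 113, 193 and 76.7 FPKM in αERKO-veh and at 5.45, 4.57, 2.16 and 2.04 FPKM in αERKO-DES (log2 change −4.05, limma adjusted p = 0.032).

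Further energy and calcium-binding genes had the order of *Tnnt3* among the αERKO-veh samples. *Eno3*, the muscle enolase, was at 23.4, 96.8, 154 and 81.5 FPKM in αERKO-veh and at 20.6, 21.3, 17.7 and 18.1 FPKM in αERKO-DES (log2 change −1.87, limma adjusted p = 0.0461). Its αERKO-veh sample 1 lay just above αERKO-DES and the other 3 far above. *Pvalb*, the calcium buffer parvalbumin of fast fibres, was at 3.28, 61.4, 82.6 and 51.4 FPKM in αERKO-veh and at 0.33, 0.32, 0.07 and 0.13 FPKM in αERKO-DES (limma adjusted p = 0.0386). *Myl3*, a light chain of slow fibres and ventricle, was at 5.50, 49.8, 93.8 and 34.4 FPKM in αERKO-veh and at 0.2, 0.13, 0.07 and 0.06 FPKM in αERKO-DES (limma adjusted p = 0.0325). It was the 1 DEG of 2 slow fibre genes tested, and 4 of 9 thin filament and troponin genes were lower, against 1.96% of all tested genes. In the fit of the 8 αERKO samples alone these counts were 1 and 2, and under quantile normalization or without αERKO-veh sample 2 both were 0.

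Some markers of skeletal muscle did not pass the test. *Acta1*, the α-actin of skeletal muscle, was at 471, 526, 625 and 521 FPKM in αERKO-veh and at 636, 510.5, 600.3 and 456 FPKM in αERKO-DES (log2 change 0.034, limma adjusted p = 0.968). These levels were far above those of *Tnnt3* in the αERKO-DES samples, and the within-group r of *Acta1* with the muscle mean was 0.30. The sign of its small difference turned under quantile normalization, equal totals and the length correction, and without αERKO-veh sample 1, αERKO-DES sample 1 or αERKO-DES sample 3. *Tnnc2*, the fast troponin C, was at 172, 292, 404 and 273 FPKM in αERKO-veh and at 179, 157, 129 and 117 FPKM in αERKO-DES (log2 change −0.92, limma adjusted p = 0.116). *Ckm*, the muscle creatine kinase, was at 51.2, 222, 345 and 196 FPKM in αERKO-veh and at 36.4, 36.1, 24.04 and 19.6 FPKM in αERKO-DES (log2 change −2.53, limma adjusted p = 0.102). For *Ckm* all αERKO-DES samples were below all αERKO-veh samples, but it did not pass the test. In all, 11 of the 16 skeletal muscle markers were DEGs, each lower, against 1.96% of all tested genes. The count was 6 in the fit of the 8 αERKO samples alone, and 0 under quantile normalization or without αERKO-veh sample 2.

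Regulators of muscle identity were low throughout. Of 10 listed myogenic factors and muscle junction genes 3 were tested and 1 was lower, against 1.96% of all tested genes called lower. The count was 0 in the fit of the 8 αERKO samples alone and under quantile normalization. *Myod1* was at 0, 0.8, 0.67 and 0.27 FPKM and *Myog* at 0.04, 0.52, 0.93 and 0.59 FPKM with vehicle in αERKO, and both had 0 FPKM in every αERKO-DES sample, as did *Myf5* and *Pax7*. These 4 were too low to be tested. *Myf6*, a myogenic factor of mature fibres, was at 0.22, 2.07, 4.77 and 1.86 FPKM in αERKO-veh and had 0 FPKM in every αERKO-DES sample (limma adjusted p = 0.0501, just above the threshold).

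The promoters of 3 muscle-following genes are printed because these genes moved together and their start regions were searched for short motifs. RefSeq sequence of GRCm38.p6 was used, with 250 bases before and 50 bases after the start. Capitals mark CAGCTG, the E-box form bound by myogenic factors, and TATAAA on either strand, which in the *Myl1* promoter lies on the opposite strand. The CAGCTG begins 51 bases before the start in *Mylpf*, 224 bases before it in *Myl1* and 107 bases before it in *Ckmt2*, the mitochondrial creatine kinase of muscle.
Mylpf, chr7:127211358-127211657 (plus strand): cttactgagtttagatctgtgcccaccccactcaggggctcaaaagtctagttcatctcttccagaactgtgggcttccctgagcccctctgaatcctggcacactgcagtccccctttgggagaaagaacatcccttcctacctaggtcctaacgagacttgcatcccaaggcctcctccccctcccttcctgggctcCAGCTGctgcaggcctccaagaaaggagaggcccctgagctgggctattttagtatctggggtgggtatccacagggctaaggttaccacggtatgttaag
Myl1, chr1:66945007-66945306 (minus strand): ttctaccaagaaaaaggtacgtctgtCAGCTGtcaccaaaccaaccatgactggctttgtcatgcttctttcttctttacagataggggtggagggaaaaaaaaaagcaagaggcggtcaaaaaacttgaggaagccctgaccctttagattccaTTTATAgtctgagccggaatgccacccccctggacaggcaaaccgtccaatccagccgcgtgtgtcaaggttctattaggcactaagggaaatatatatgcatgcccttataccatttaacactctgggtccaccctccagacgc
Ckmt2, chr13:91876836-91877135 (minus strand): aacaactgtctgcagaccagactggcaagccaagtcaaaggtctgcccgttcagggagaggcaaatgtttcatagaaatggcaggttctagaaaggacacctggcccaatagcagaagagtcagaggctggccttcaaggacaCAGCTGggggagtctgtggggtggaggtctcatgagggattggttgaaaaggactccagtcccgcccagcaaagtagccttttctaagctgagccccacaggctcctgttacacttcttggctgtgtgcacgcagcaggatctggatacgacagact
Of the 146 lower DEGs that followed muscle, 101 (69.2%) had a listed promoter, under the 80% needed to speak of the whole group. Of these 101 promoters 51.5% held CAGCTG and 24.8% held TATAAA, on either strand. Of the 10275 tested genes with a listed promoter 18.5% held CAGCTG and 9.22% TATAAA, and of all 32851 promoters in the reference 16.3% and 13.6%. TAAAAATA, the core of a MEF2-type site, was in 6.93% of the 101 against 1.6% of tested genes. The motifs do not overlap each other in these 3 promoters, and a match describes letters only.

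Genes of fat cells formed the next group. Adipocytes take up fatty acids, store them as triglyceride in lipid droplets and secrete adipokines. *Car3*, a carbonic anhydrase abundant in adipocytes, was at 77.9, 274, 57.1 and 142 FPKM in αERKO-veh and at 4.71, 9.17, 4.32 and 1.03 FPKM in αERKO-DES. The groups were far apart, with 9.17 FPKM as the highest αERKO-DES value and 57.1 FPKM as the lowest αERKO-veh value. The log2 change of *Car3* was −4.53 (SE 0.57, limma adjusted p = 0.00705), the lowest adjusted p of the lower DEGs.

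Among adipokines and secreted proteins of fat 3 of 5 tested genes were lower and 0 higher, and 3 of 6 uptake and binding genes were lower, against 1.96% of all tested genes. Both counts were 0 in the fit of the 8 αERKO samples alone, under quantile normalization and without αERKO-veh sample 2. *Cfd*, the serine protease adipsin, was at 148, 402, 25.7 and 166 FPKM in αERKO-veh and at 15.3, 20.2, 9.30 and 1.61 FPKM in αERKO-DES (log2 change −3.70, limma adjusted p = 0.032). *Adipoq*, which encodes adiponectin, was at 22.8, 69.8, 2.18 and 24.3 FPKM in αERKO-veh and at 1.19, 1.64, 1.09 and 0.35 FPKM in αERKO-DES (log2 change −3.25, limma adjusted p = 0.0332). αERKO-veh sample 3, which had the lowest adipose markers of its group, lay close to αERKO-DES in both genes. *Fabp4*, the fatty acid carrier of adipocytes, was at 208, 477, 57.05 and 216 FPKM in αERKO-veh and at 33.4, 36.1, 23.01 and 14.8 FPKM in αERKO-DES. *Cd36*, a fatty acid transporter of fat, muscle and endothelium, was at 11.8, 35.3, 7.81 and 13.4 FPKM in αERKO-veh and at 2.92, 3.02, 3.20 and 2.38 FPKM in αERKO-DES. *Lpl*, the lipase that frees fatty acids from lipoproteins, was at 21.6, 66.9, 11.7 and 27.6 FPKM in αERKO-veh and at 8.29, 8.53, 8.13 and 8.09 FPKM in αERKO-DES. These last 3 were the DEGs among the uptake and binding genes, lower by 8.92-, 5.94- and 3.87-fold in mean FPKM.

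Storage and synthesis genes gave 3 DEGs in all, each lower, against 2.07% of all tested genes called, and 0 in the fit of the 8 αERKO samples alone, under quantile normalization or without αERKO-veh sample 2. Of 9 lipid droplet and lipolysis genes 1 was a DEG, *Cidec*, which enlarges lipid droplets, at 17.9, 61.9, 2.40 and 17.9 FPKM in αERKO-veh and 1.34, 2.15, 0.87 and 0.15 FPKM in αERKO-DES. *Plin1*, the coat protein of the droplet, was at 6.51, 32.7, 0.7 and 8.53 FPKM in αERKO-veh and at 0.79, 0.76, 0.43 and 0.06 FPKM in αERKO-DES (limma adjusted p = 0.0617). The groups overlapped in *Plin1* through αERKO-veh sample 3. Of 12 synthesis genes 2 were DEGs. *Dgat2*, which makes triglyceride, was at 12.3, 41.3, 4.70 and 16.2 FPKM in αERKO-veh and at 2.24, 3.68, 1.56 and 1.72 FPKM in αERKO-DES. *Pck1*, which supplies glycerol in fat, was at 13.6, 50.98, 1.30 and 13.3 FPKM in αERKO-veh and at 0.67, 0.32, 0.12 and 0.17 FPKM in αERKO-DES. *Fasn*, the fatty acid synthase, was at 36.1, 104, 43.1 and 52.1 FPKM in αERKO-veh and at 42.1, 40.5, 45.99 and 41.9 FPKM in αERKO-DES, where αERKO-veh sample 2 stood above the other 7 samples (log2 change −0.33, limma adjusted p = 0.581). *Fasn* thus did not share the pattern of the uptake genes. Of 6 fat transcription factors 0 were DEGs, near the 2.07% of all tested genes for a list of this size, and under the alternatives between 0 and 2 of the 3 to 8 then tested were. None passed as deposited, including *Pparg*, the master regulator of adipocytes, at 2.39, 7.51, 1.38 and 3.20 FPKM in αERKO-veh and 0.48, 0.96, 0.47 and 0.32 FPKM in αERKO-DES (limma adjusted p = 0.0687). Of the thermogenic genes, *Ucp1*, the uncoupling protein of brown fat, was at 3.92, 37, 0.19 and 5.51 FPKM in αERKO-veh and at 0.1, 0.06, 0.14 and 0.13 FPKM in αERKO-DES (limma adjusted p = 0.188). In the last 2 genes αERKO-veh sample 2 was the highest, as it was in most fat genes. *Cox8b*, a cytochrome oxidase subunit of muscle and brown fat, was the 1 DEG of 4 thermogenic genes, at 17.99, 93.1, 89.1 and 53.5 FPKM in αERKO-veh and 1.89, 0.52, 0.84 and 0.74 FPKM in αERKO-DES. It followed muscle (r 0.72) and not fat (r 0.43). *Car3* was the 1 DEG of 8 further enzymes and receptors of fat metabolism.

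Of 6 prostate markers 1, *Msmb*, was lower, with a median log2 change of −0.16 over the 6, against 1.96% of all tested genes called lower. The count was 2 in the fit of the 8 αERKO samples alone, and 0 with no minimum FPKM, under quantile normalization or without αERKO-veh sample 2 or αERKO-DES sample 4. *Msmb*, which encodes the prostate secretory protein β-microseminoprotein, was at 1509, 954, 766 and 855 FPKM in αERKO-veh and at 93.8, 249, 46.5 and 29.1 FPKM in αERKO-DES (log2 change −3.69, SE 0.86, limma adjusted p = 0.0374). The groups did not overlap in *Msmb*. *Pbsn*, the androgen-driven probasin, was at 2188, 1612, 2265 and 1796 FPKM in αERKO-veh and at 2186, 1725, 1963 and 1547 FPKM in αERKO-DES (log2 change −0.081, limma adjusted p = 0.937). *Sbp*, spermine-binding protein, was at 490.01, 85.9, 43.2 and 457 FPKM in αERKO-veh and at 4.92, 6.90, 4.33 and 4.46 FPKM in αERKO-DES, without overlap, and did not pass the test (limma adjusted p = 0.0944). Of these 2, *Sbp* thus had a large but variable difference and *Pbsn* almost none. *Defb50*, a β-defensin, was at 1693, 1153, 1074 and 1131 FPKM in αERKO-veh and at 451, 628, 242 and 278 FPKM in αERKO-DES (log2 change −1.74, limma adjusted p = 0.0325). *Wfdc3*, of the family of whey acidic protein inhibitors, was at 52.7, 16.5, 9.77 and 10.6 FPKM in αERKO-veh and at 0.6, 0.84, 0.1 and 0.52 FPKM in αERKO-DES (limma adjusted p = 0.0461). Within groups *Msmb*, *Wfdc3* and *Defb50* had r of 0.56, 0.53 and 0.56 with the adipose mean and count among the genes that follow fat, although their known source is glandular epithelium.

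Some of the named DEGs that followed neither muscle nor fat are known from peripheral nerve. Schwann cells wrap axons in myelin and support them. *Mbp*, myelin basic protein, was at 18.3, 33.2, 20.4 and 23.4 FPKM in αERKO-veh and at 14.4, 13.7, 11.1 and 11.2 FPKM in αERKO-DES (log2 change −0.84, limma adjusted p = 0.0331). αERKO-veh sample 2 was the highest, and all αERKO-DES samples were below all αERKO-veh samples. *Ngfr*, the low-affinity neurotrophin receptor, was at 11.2, 22.5, 5.67 and 17.6 FPKM in αERKO-veh and at 4.26, 5.10, 2.78 and 1.89 FPKM in αERKO-DES. *Cdh19*, a cadherin of Schwann cell precursors, was at 1.45, 3.09, 1.56 and 2.23 FPKM in αERKO-veh and at 0.5, 0.81, 0.4 and 0.66 FPKM in αERKO-DES. *Kif1a*, an axonal transport motor, was at 1.86, 5.05, 1.24 and 3.36 FPKM in αERKO-veh and at 0.93, 0.96, 0.45 and 0.5 FPKM in αERKO-DES. The limma adjusted p of these was 0.0487, 0.032 and 0.0467, and their αERKO groups did not overlap.

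Other named DEGs of this group are known from connective tissue or act on signals in it. *Scara5*, a scavenger receptor of stromal fibroblasts, was at 5.87, 12.4, 5.42 and 8.47 FPKM in αERKO-veh and at 3.84, 2.39, 1.18 and 0.49 FPKM in αERKO-DES (log2 change −1.68, SE 0.36, limma adjusted p = 0.0325). *Dpt*, the matrix protein dermatopontin, was at 60.3, 93.1, 67.5 and 80.5 FPKM in αERKO-veh and at 51.3, 45.4, 48.5 and 48.95 FPKM in αERKO-DES (log2 change −0.61, limma adjusted p = 0.032). The 4 αERKO-DES samples lay close together in *Dpt*. *Osr1*, a zinc finger factor of urogenital mesenchyme, was at 12.9, 23.7, 24.8 and 17.6 FPKM in αERKO-veh and at 10.8, 12.97, 2.96 and 5.74 FPKM in αERKO-DES, where sample 2 reached above the lowest αERKO-veh sample. *Epyc*, a small proteoglycan of the matrix, was at 1.68, 3.64, 2.39 and 3.79 FPKM in αERKO-veh and at 0.62, 0.63, 0.52 and 0.27 FPKM in αERKO-DES, and was 5.64-fold lower (limma adjusted p = 0.0239). The groups did not overlap in *Epyc*. *Enpp2*, which makes lysophosphatidic acid, was at 16.1, 26.2, 19.5 and 21.1 FPKM in αERKO-veh and at 9.86, 12.8, 7.57 and 8.62 FPKM in αERKO-DES (limma adjusted p = 0.0331). *Aldh1a3*, which makes retinoic acid, was at 3.57, 6.72, 7.09 and 6.30 FPKM in αERKO-veh and at 2.22, 2.47, 1.47 and 2.13 FPKM in αERKO-DES (limma adjusted p = 0.032). For *Enpp2* and *Aldh1a3* no αERKO-DES sample reached the lowest αERKO-veh sample.

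As lists, fibroblast markers had 3 of 7 lower and extracellular matrix genes 0 of 27, with median log2 changes of −0.51 and −0.18, against 2.07% of all tested genes called. The fibroblast count was 0 in the fit of the 8 αERKO samples alone, under quantile normalization or without αERKO-veh sample 2, αERKO-veh sample 4 or any 1 of αERKO-DES samples 1 to 3, and 1 without αERKO-DES sample 4. Without αERKO-veh sample 1 the counts were 5 and 4, and without αERKO-veh sample 3 they were 5 and 2. *Dcn*, the small proteoglycan decorin, was at 228, 292, 199 and 266 FPKM in αERKO-veh and at 178, 164, 161 and 145 FPKM in αERKO-DES, and followed fat with an r of 0.72. *Lum*, lumican, was at 20.7, 31.6, 13.2 and 29.3 FPKM in αERKO-veh and at 17.96, 11.6, 11.7 and 9.62 FPKM in αERKO-DES, and followed fat with an r of 0.74. Both were at the edge of the thresholds, with a fold of 1.52 for *Dcn* and a limma adjusted p of 0.0495 for *Lum*, whose groups overlapped.

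Of 7 endothelial markers 1 was lower, against 1.96% of all tested genes, and 0 with equal totals, with no minimum FPKM, under quantile normalization, in the fit of the 8 αERKO samples alone and without αERKO-veh sample 2, 3 or 4 or αERKO-DES sample 1, 2 or 3. The 1 was *Tek*, the receptor for angiopoietins, at 4.32, 8.79, 6.50 and 6.32 FPKM in αERKO-veh and 3.12, 3.91, 3.33 and 4.15 FPKM in αERKO-DES (log2 change −0.67, limma adjusted p = 0.0431). Its ligands were lower as well. *Angpt1*, the activating ligand, was at 2.03, 2.64, 3.46 and 2.97 FPKM in αERKO-veh and at 1.12, 1.41, 0.22 and 0.31 FPKM in αERKO-DES (limma adjusted p = 0.032). *Angpt2*, the context-dependent ligand, was at 2.28, 4.08, 3.57 and 3.94 FPKM in αERKO-veh and at 1.33, 2.17, 1.77 and 1.64 FPKM in αERKO-DES (limma adjusted p = 0.032). None of these 3 genes overlapped between groups. *Vcam1*, an adhesion molecule of activated endothelium and stroma, was at 4.10, 7.02, 3.62 and 5.86 FPKM in αERKO-veh and at 2.90, 3.02, 1.92 and 2.40 FPKM in αERKO-DES. *Calcrl*, the receptor for adrenomedullin and CGRP, was at 6.63, 9.21, 6.82 and 7.01 FPKM in αERKO-veh and at 4.11, 5.24, 3.90 and 3.88 FPKM in αERKO-DES (limma adjusted p = 0.032). *Mme*, the membrane peptidase neprilysin, was at 47.1, 65.5, 58.8 and 35.4 FPKM in αERKO-veh and at 15.5, 23.7, 16.3 and 21.99 FPKM in αERKO-DES (log2 change −1.36, limma adjusted p = 0.0374).

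The other named genes of this group belong to several cell types. *C7*, a complement component made by stroma, was at 7.60, 31.3, 14.5 and 11.2 FPKM in αERKO-veh and at 2.99, 4.12, 5.71 and 5.06 FPKM in αERKO-DES (limma adjusted p = 0.0467). *Pi15*, a secreted peptidase inhibitor, was at 2.92, 7.50, 5.84 and 6.01 FPKM in αERKO-veh and at 1.61, 1.93, 1.42 and 1.44 FPKM in αERKO-DES (log2 change −1.29, limma adjusted p = 0.0325). *Mcpt4*, a chymase of connective tissue mast cells, was at 1.49, 2.95, 2.08 and 3.82 FPKM in αERKO-veh and at 1.13, 0.46, 1.36 and 0.51 FPKM in αERKO-DES (limma adjusted p = 0.049). The groups did not overlap in these 3 genes, and *C7* was high in αERKO-veh sample 2. *Pdzk1*, a scaffold of epithelial transporters, was at 14.9, 13.2, 9.48 and 10.4 FPKM in αERKO-veh and at 4.74, 4.73, 3.10 and 3.91 FPKM in αERKO-DES (log2 change −1.34, limma adjusted p = 0.0478). *Lrrc17*, a secreted leucine-rich protein, was at 3.78, 6.61, 5.36 and 6.80 FPKM in αERKO-veh and at 2.12, 2.39, 1.29 and 2.02 FPKM in αERKO-DES. *Ecm2*, a matrix protein, was at 3.66, 7.80, 4.17 and 6.28 FPKM in αERKO-veh and at 2.29, 2.15, 1.91 and 2.22 FPKM in αERKO-DES. The αERKO-DES samples of *Ecm2* lay close together. *Lgi2*, *Aatk*, *Fxyd7* and *DQ267101* were lower too, with log2 changes of −1.08, −0.98, −1.19 and −0.93.

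**Figure D3:**
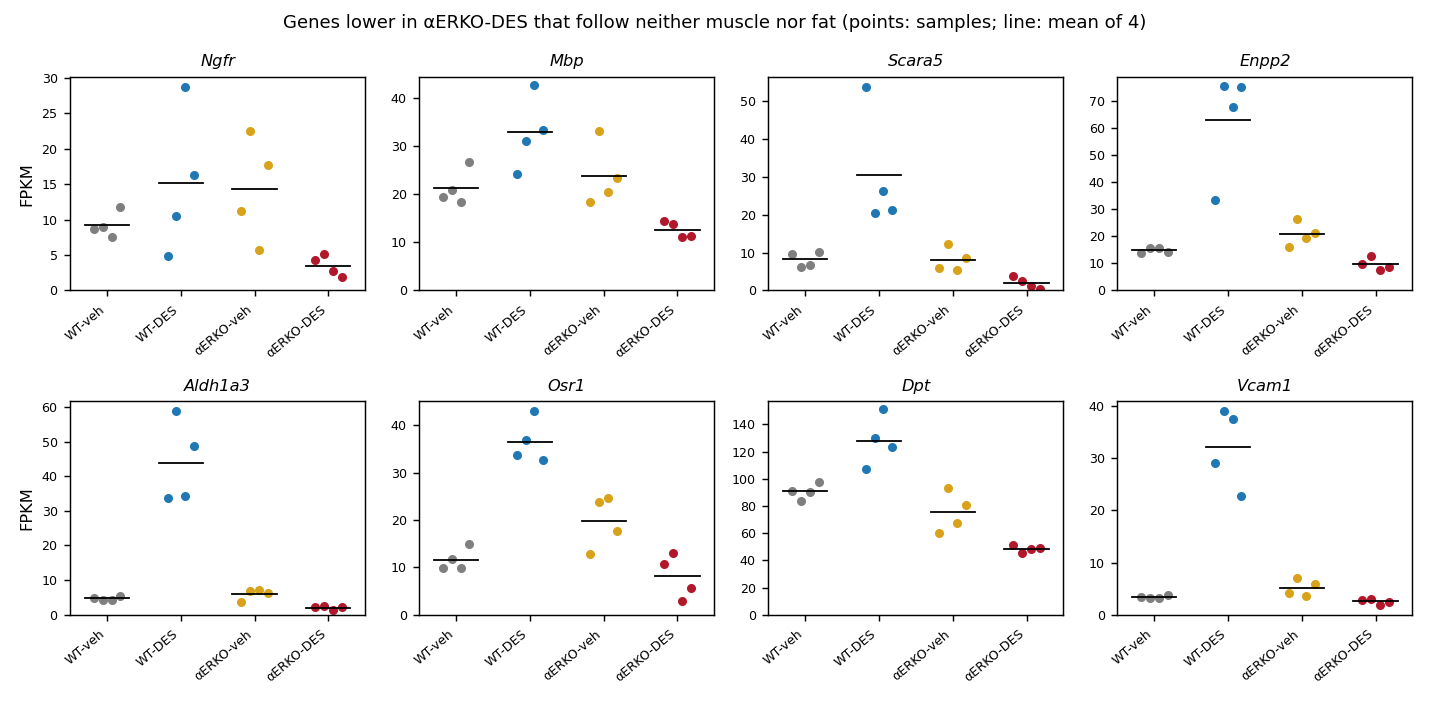
FPKM of 8 genes that were lower in αERKO-DES and followed neither muscle nor fat, in each of the 16 samples. Points are samples and lines are means of 4. In all 8 the αERKO-DES mean is the lowest of the 4 groups, and in 7 of the 8 no αERKO-DES sample reaches αERKO-veh (the exception is Osr1). The WT-DES mean is above the WT-veh mean in all 8.

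How a gene was assigned bears on this group. With r taken over the 8 αERKO samples alone, 31 of the 300 DEGs followed neither (14 higher and 17 lower), and with a limit of 0.7 in place of 0.5 there were 164. With the muscle and adipose means as covariates there were 0 DEGs by limma, with 978 genes at or under 0.05 before adjustment, a lowest adjusted p of 0.541 and the same sign as before for 268 of the 300. As both means separate the αERKO groups without overlap, this fit does not test what part they had. The log2 change also went with transcript length. Spearman's rho was −0.353 across the 13709 genes with a length (94.6%), a description across genes, which are not independent. The median longest transcript was 4654 nt for the lower DEGs that followed neither, 2874 nt for those that followed muscle or fat, 1945 nt for the higher DEGs and 3278 nt for all. After a correction for this trend there were 319 DEGs, of which 9 were higher and 86 followed neither. Of the 91, 64 were among the 319.

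*Taf10* was the gene with the lowest adjusted p of all. It encodes a histone-fold subunit shared by TFIID, the complex that recruits RNA polymerase II to promoters, and SAGA, a histone acetyltransferase coactivator. *Taf10* was at 39.8, 37.2, 39.2 and 39.6 FPKM in αERKO-veh and at 85.2, 74.8, 81.2 and 68.9 FPKM in αERKO-DES. The αERKO-veh samples lay close together, and every αERKO-DES sample was well above them (log2 change 0.97, SE 0.11, limma adjusted p = 0.00255). The fit of the 8 αERKO samples alone gave it an adjusted p of 0.00529. It was the 1 DEG among 16 TFIID subunits, whose median log2 change was 0.078, and the 1 DEG among 19 SAGA subunits, whose median was 0.13, where 0.11% of all tested genes were called higher. With equal totals the TFIID median was −0.02 and 10 of the 16 were below 0. *Taf10* lies on chromosome 7 from 105739393 to 105744361 (minus strand) of GRCm38 and overlaps *Ilk*, which lies on chromosome 7 from 105736592 to 105742925 (plus strand). Whether the counting used strand is not given in the sources used here, and reads of the shared stretch could then be credited to either gene. *Ilk*, the integrin-linked kinase, was at 107, 102, 97.6 and 100.4 FPKM in αERKO-veh and at 125, 117, 129.8 and 124 FPKM in αERKO-DES (log2 change 0.28, limma adjusted p = 0.0775), so that the higher *Taf10* stands beside a smaller difference in its overlapping neighbour.

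The other higher DEGs came from several functions, and few genes were higher DEGs under some settings, 3 with equal totals or quantile normalization and 1 in the fit of the 8 αERKO samples alone. *Klf2*, a zinc finger factor of the immediate early kind that also responds to shear stress in endothelium, was at 33.4, 31.1, 28.8 and 32.2 FPKM in αERKO-veh and at 77.8, 55.3, 40.99 and 48.2 FPKM in αERKO-DES (log2 change 0.77, SE 0.18, limma adjusted p = 0.0377). Sample 1 was the highest of αERKO-DES. *Klf2* was the 1 DEG of 18 immediate early genes, against 2.07% of all tested genes called and 0.11% called higher. It was a DEG itself in 11 of the 22 alternative settings and lost, among others, under quantile normalization, equal totals, no minimum FPKM or the fit of the 8 αERKO samples alone. *Jund*, an AP-1 subunit on the same list, was at 93.7, 91.9, 102 and 96.04 FPKM in αERKO-veh and at 155, 131, 129.6 and 110.4 FPKM in αERKO-DES, which passed the adjusted p (0.0416 by limma) at a ratio of 1.37, below the fold required. *Tmem238*, a small membrane protein, was at 90.3, 59.7, 69.8 and 76.02 FPKM in αERKO-veh and at 158, 120.3, 121 and 111 FPKM in αERKO-DES (log2 change 0.78, limma adjusted p = 0.0306). *Zfp771*, a zinc finger protein, was at 107, 90.7, 91.4 and 84.01 FPKM in αERKO-veh and at 166, 140.5, 141 and 119.5 FPKM in αERKO-DES (limma adjusted p = 0.032). *Tmem160*, a mitochondrial membrane protein, was at 95.5, 70.3, 93.05 and 80.7 FPKM in αERKO-veh and at 147, 130.4, 125 and 116 FPKM in αERKO-DES (limma adjusted p = 0.0325). In these 3 genes sample 1 was the highest within αERKO-DES, as it was in *Klf2*, and the groups did not overlap.

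*Zfpm1*, the GATA cofactor FOG1, was at 26.9, 28.03, 30.4 and 26.8 FPKM in αERKO-veh and at 45.1, 47.6, 51.6 and 34.04 FPKM in αERKO-DES (limma adjusted p = 0.032). *Doxl2*, a diamine oxidase-like gene, was at 21.6, 18.03, 21.2 and 14.3 FPKM in αERKO-veh and at 25.1, 26.5, 44.1 and 29.1 FPKM in αERKO-DES (limma adjusted p = 0.0377). *Cabp1*, a calcium-binding protein related to calmodulin, was at 41.8, 24.01, 29.9 and 29.9 FPKM in αERKO-veh and at 58.97, 43.9, 65.3 and 38.8 FPKM in αERKO-DES (limma adjusted p = 0.046). *Cabp1* and *Nr2e3* were the 2 of 16 higher DEGs whose groups overlapped. *Nr2e3*, an orphan nuclear receptor known from photoreceptors, was at 2.44, 1.92, 1.30 and 2.98 FPKM in αERKO-veh and at 5.45, 6.58, 4.67 and 2.74 FPKM in αERKO-DES. *Mthfd2l*, a mitochondrial folate enzyme, was at 9.22, 7.91, 6.18 and 8.49 FPKM in αERKO-veh and at 16.3, 10.1, 11.4 and 12.8 FPKM in αERKO-DES. *Chrdl2*, a BMP antagonist, was at 7.74, 6.10, 5.40 and 6.57 FPKM in αERKO-veh and at 11.5, 9.92, 9.20 and 8.57 FPKM in αERKO-DES. In these 2 the groups did not overlap. The remaining higher DEGs were *Bri3*, *Gm15706*, *Snhg8*, *M1ap* and *AK003103*, with ratios of 1.505, 1.59, 1.53, 1.64 and 10.1. The last ratio stands on low values, 0, 0.56, 0 and 0 FPKM in αERKO-veh against 1.43, 2.31, 1.11 and 0.78 FPKM in αERKO-DES.

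**Figure D4:**
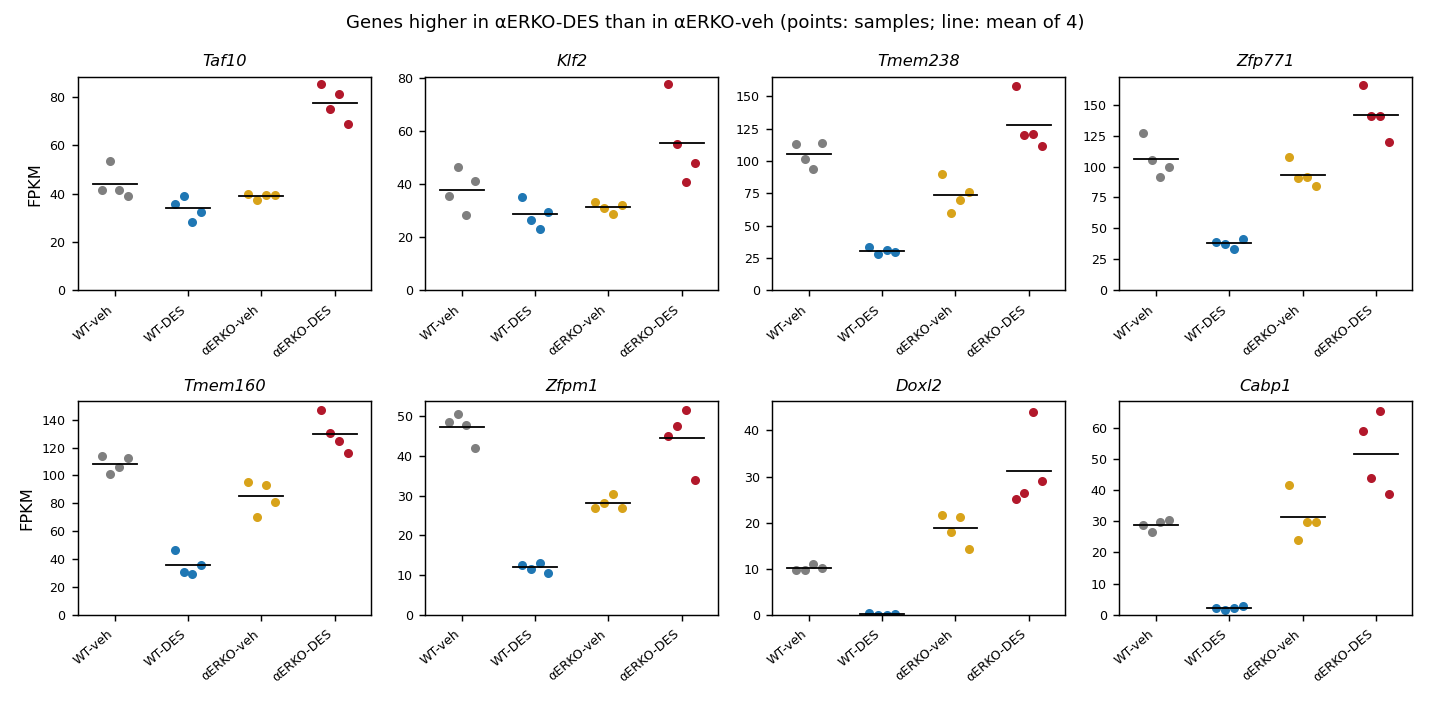
FPKM of 8 of the 16 genes that were higher in αERKO-DES than in αERKO-veh, in each of the 16 samples. Points are samples and lines are means of 4. In 7 of the 8 all αERKO-DES samples lie above all αERKO-veh samples (the exception is Cabp1), and in all 8 the WT-DES mean is below the WT-veh mean.

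The promoters of the 3 higher DEGs with the largest log2 change among those with a mean above 10 FPKM are printed with GGGCGG, the GC box bound by Sp and Klf family factors, in capitals (RefSeq, GRCm38.p6). It begins 65 bases before the start in *Taf10*, 214 and 195 bases before it in *Klf2* and 47 bases before it in *Tmem238*, where it is on the opposite strand.
Taf10, chr7:105744289-105744588 (minus strand): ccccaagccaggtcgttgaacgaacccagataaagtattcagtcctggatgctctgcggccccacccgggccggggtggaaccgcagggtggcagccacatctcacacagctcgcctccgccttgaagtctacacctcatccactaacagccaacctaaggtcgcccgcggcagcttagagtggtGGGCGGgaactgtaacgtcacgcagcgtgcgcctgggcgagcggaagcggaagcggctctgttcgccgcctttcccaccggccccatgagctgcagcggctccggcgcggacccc
Klf2, chr8:72318812-72319111 (plus strand): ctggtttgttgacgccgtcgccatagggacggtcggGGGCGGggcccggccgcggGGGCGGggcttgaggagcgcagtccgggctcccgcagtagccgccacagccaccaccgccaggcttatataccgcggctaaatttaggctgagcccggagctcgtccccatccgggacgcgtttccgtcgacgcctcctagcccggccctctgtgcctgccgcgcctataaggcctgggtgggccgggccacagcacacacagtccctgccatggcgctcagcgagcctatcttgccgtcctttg
Tmem238, chr7:4789511-4789810 (minus strand): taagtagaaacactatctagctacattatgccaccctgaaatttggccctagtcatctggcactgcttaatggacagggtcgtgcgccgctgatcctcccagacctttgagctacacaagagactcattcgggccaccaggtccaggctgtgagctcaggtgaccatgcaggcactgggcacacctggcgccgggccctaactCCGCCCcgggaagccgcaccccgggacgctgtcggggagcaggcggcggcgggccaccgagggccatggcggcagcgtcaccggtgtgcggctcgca
Of the 16 higher DEGs 14 had a listed promoter, and 11 of these (78.6%) held GGGCGG on either strand, against 67.6% of tested genes with a listed promoter. The consensus oestrogen response element, GGTCA and TGACC with 3 bases between them, was in 0 of the 14 promoters, in 0 of those listed for the lower DEGs that followed muscle, fat or neither, and in 1 of the 10275 of tested genes. The nuclear receptor site AGGTCA, whose last 5 letters are part of that element, was in 0 of the 14, in 23.8% of listed promoters of the lower DEGs that followed muscle and in 1540 of the 10275 of tested genes. These matches concern the 300 bases printed per gene and say nothing of other sites.

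Of 12 SV secretory genes and 8 luminal epithelial markers 0 were DEGs, which for lists of this size is near the 2.07% of all tested genes. *Svs4*, an abundant secretory protein of the SV, was at 8338, 5286, 6293 and 6849 FPKM in αERKO-veh and at 8932, 6689, 10749 and 5374 FPKM in αERKO-DES (log2 change 0.22, limma adjusted p = 0.705). The 12 SV secretory genes had log2 changes of 0.20 to 0.34, all above 0 as deposited and with equal totals, but with 4 below and 7 above 0 under quantile normalization. Their groups overlapped in all 12. Luminal epithelial markers had a median log2 change of 0.31 over 8 genes and smooth muscle markers 0.23 over 8, with 0 DEGs in each, and with equal totals 2 of each 8 were below 0, as were 2 and 3 under quantile normalization. Basal epithelial (4 tested), leukocyte (9), mesothelial (3), red blood cell (4) and epididymal (2) markers also held 0 DEGs, and none of 4 sperm markers reached the level for a test. Equal totals shifted the median of all tested genes by −0.117.

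Lists of hormone-responsive genes held 0 DEGs, near the 2.07% over all tested genes at these sizes. Of 13 oestrogen-responsive genes listed, 7 could be tested, and their log2 changes ran from −0.87 to 0.47. *Ltf*, lactoferrin, which oestrogen induces in the reproductive tract, was at 7.29, 2.59, 3.80 and 10.8 FPKM in αERKO-veh and at 8.60, 5.92, 1.76 and 3.08 FPKM in αERKO-DES (log2 change −0.29, limma adjusted p = 0.637). The samples of the 2 groups overlapped. The 12 androgen-responsive genes had log2 changes from −0.61 to 0.36, and 6 tested xenobiotic response genes from −0.30 to 0.10. Of the chromatin writers and erasers listed, 36 were tested and 0 were DEGs, with a median log2 change of −0.02. At this spread between samples differences below the thresholds were not detectable, which does not show that these genes were equal.

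The WT-DES and WT-veh samples gave the same contrast in mice with ERα, from samples that the αERKO contrast does not share. In the wild type 7151 of the 14489 genes (49.4%) were DEGs, 23.2% higher and 26.1% lower. Of the 284 genes lower in αERKO-DES, 157 were higher and 12 lower with DES in the wild type, and 115 were not DEGs there. Of the 16 genes higher in αERKO-DES, 12 were lower in WT-DES, 0 higher and 4 not DEGs there. The interaction, which is the change in the wild type minus the change in αERKO, passed the same thresholds for 257 of the 300, against 54.0% of all tested genes. The αERKO change, by which the 300 were chosen, is part of this interaction, so the count is given as a description.

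The WT counts are given here for each group, with no test between the groups. Of the 146 genes that followed muscle, 93 were not DEGs in the wild type, 48 were higher and 5 lower in WT-DES. Of the 52 lower genes that followed fat, 36 were higher and 6 lower in WT-DES, and 10 were not DEGs there. Of the 10 that followed both, 9 were higher and 1 lower. Of the 76 lower genes that followed neither, 64 were higher and 0 lower in WT-DES. Of the 15 higher genes that followed neither, 12 were lower and 0 higher in WT-DES. The interaction passed for 87 of these 91. The plot of both changes shows the lower genes that follow neither mostly to the right of 0 and the higher ones mostly to the left.

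**Figure D5:**
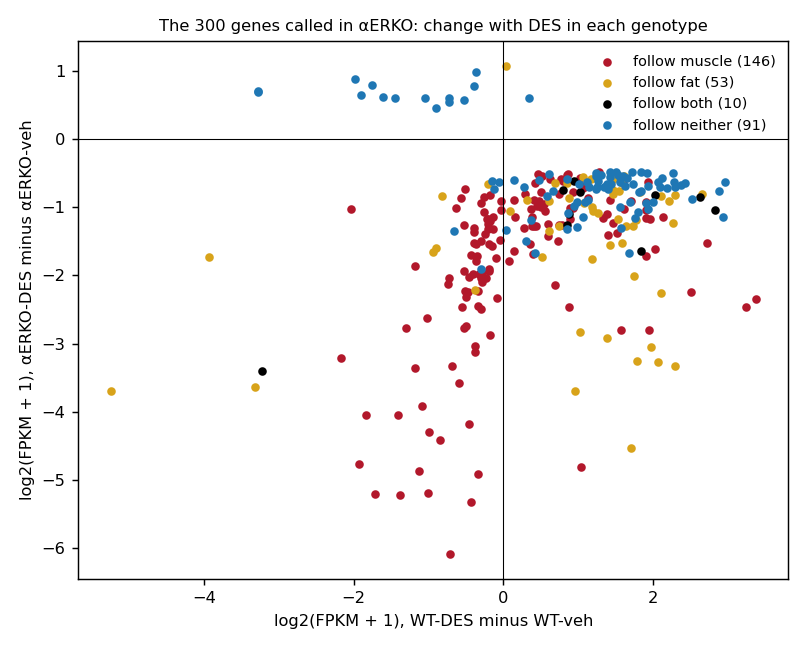
Change with DES in αERKO (vertical axis) against change with DES in the wild type (horizontal axis), both as differences of mean log2(FPKM + 1), DES minus vehicle, for the 300 DEGs of αERKO. Colours give what each gene follows. Of the 91 genes that follow neither, 64 are lower in αERKO and higher in the wild type and 12 are higher in αERKO and lower in the wild type.

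Single genes show the size of these contrasts. *Aldh1a3* was at 4.77, 4.36, 4.20 and 5.54 FPKM in WT-veh and at 33.8, 58.7, 34.3 and 48.6 FPKM in WT-DES, a rise of 2.94 on the log2 scale beside the fall in αERKO (interaction 4.09, SE 0.28, limma adjusted p = 2.79e-08). *Vcam1* was at 3.41, 3.26, 3.21 and 3.71 FPKM in WT-veh and at 29.2, 39.05, 37.5 and 22.9 FPKM in WT-DES (interaction 3.65, limma adjusted p = 3.56e-08). *Doxl2* went the other way, at 9.70, 9.73, 10.9 and 10.2 FPKM in WT-veh and 0.34, 0.03, 0.03 and 0.21 FPKM in WT-DES (interaction −3.97, limma adjusted p = 8.62e-09). In all 3 the WT groups were far apart and did not overlap. *Car3* was at 124, 37.3, 103 and 201 FPKM in WT-veh and at 301, 368, 211 and 482 FPKM in WT-DES (interaction 6.24, limma adjusted p = 7.65e-06). For *Taf10* the WT samples were at 41.4, 53.4, 41.4 and 38.8 FPKM with vehicle and at 35.7, 38.9, 28.2 and 32.5 FPKM with DES (interaction −1.33, limma adjusted p = 2.21e-06). The WT groups overlapped in *Taf10* and did not in *Car3*. *Mthfd2l* was a higher DEG whose interaction did not pass (limma adjusted p = 0.191), with a change of 0.34 in the wild type.

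The 12 genes lower with DES in both genotypes were *Msmb*, *Wfdc3*, *Defb50*, *5430419D17Rik*, *Casq1*, *Mybpc1*, *Eno3*, *Nrap*, *Amhr2*, *Ddc*, *Syt10* and *5033404E19Rik*. *Msmb* was at 689, 94.8, 1082 and 1586 FPKM in WT-veh and at 41.9, 10.3, 3.31 and 24.8 FPKM in WT-DES (interaction −1.56, limma adjusted p = 0.264). *Wfdc3* was at 55.8, 2.19, 106 and 226 FPKM in WT-veh and at 3.14, 4.63, 3.58 and 3.15 FPKM in WT-DES (interaction 0.32, limma adjusted p = 0.84). WT-veh sample 2 was the lowest of its group in both genes. *Defb50* was at 1104, 642, 1445 and 1946 FPKM in WT-veh and at 91.1, 100.01, 41.5 and 91.7 FPKM in WT-DES, a larger fall than in αERKO (interaction −2.20, limma adjusted p = 0.00155). An interaction that misses the threshold, as for *Msmb* and *Wfdc3*, does not show that the 2 changes were equal.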

How the data were processed

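RNA-seq of 16 week 5 SV samples in 4 groups was analysed. The authors aligned paired-end reads to mm10 with TopHat2 2.0.4, estimated FPKM per gene with Cufflinks 2.0.2 and deposited FPKM values with 2 decimals for 31274 genes. The gene annotation behind the FPKM and the use of strand are not given in the sources used here, and no count model was run, since FPKM are not counts.

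From these values log2(FPKM + 1) was computed (pseudocount 1), and limma 3.58.1 in R 4.3.3 was fitted to the 16 samples in 1 model with 4 group means and a variance trend. Genes had to exceed a mean of 1 FPKM in αERKO-veh or αERKO-DES. P-values are two-sided, Benjamini-Hochberg adjusted over the 14489 genes tested. As the labels number samples within groups and do not say how they were processed together, p-values measure the spread between these samples. Same-numbered samples did not deviate together in every pair (r from −0.021 to 0.279 over genes), so the numbers were not used as a block in the results reported. A gene counted as following muscle or fat at an r above 0.5, and a marker counted with its own list. The interaction used the same model.

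The comparison, the gene lists and the tests were chosen with earlier results of these data known. Genes named are the members of the lists with the highest mean in αERKO-veh or a contrary direction, the 16 higher DEGs, the 20 largest falls (log2 scale) among those that follow neither, the 10 largest among those that follow, genes called in both genotypes and a few fixed genes. Some genes that the rule names are not reported here. *Ilk* and genes of 2 lists in the closing section were chosen after their values were seen. Lengths and coordinates came from GENCODE M21 (GRCm38), with 22557 genes matched by symbol and 968 by synonym. Promoters came from RefSeq (GRCm38.p6), matched by symbol. The fits were tested on simulated data. Python 3.11.15 with pandas 2.3.3, numpy 2.4.6 and matplotlib 3.10.9 made the summaries and figures. Alternatives covered the pseudocount, the minimum FPKM (none or 5), the samples fitted, sample weights, scaling, thresholds, covariates, transcript length, the replicate block, the limit of r and leaving out each αERKO sample. Leaving out the WT-DES samples or WT-veh sample 4 was chosen after seeing the data.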

Additional observations from a re-analysis of the deposited data

Results flagged for a closer look

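The values of 4 samples were examined in 228 groups, each of a named gene or of the mean of a marker list. In 9 of them, all of named genes, 1 sample lay far from the others on the log2(FPKM + 1) scale. Its gap to its nearest neighbour was large against the range of the group (Dixon's ratio, 95% critical value). Chance alone flags about 1 group in 20. In αERKO-veh sample 2 stood apart for *AK003103*, with 0.56 FPKM against 0 in the other 3 (gap 1.0 of the range), and for *Calcrl*, with 9.21 FPKM (gap 0.833). αERKO-veh sample 1, which had the lowest muscle markers of its group, was the low sample for *Pvalb* at 3.28 FPKM (gap 0.843) and for *Gsdmc2* at 4.13 FPKM (gap 0.901). The same sample was the high one for *Defb50* at 1693 FPKM (gap 0.844). In αERKO-DES sample 2 was the high sample for *Myh1* at 0.55 FPKM (gap 0.836) and for *5430419D17Rik* at 4.07 FPKM (gap 0.846). αERKO-DES sample 1 was at 0 for *Ckmt2* against 0.04 FPKM in the other 3 (gap 1.0), which is a difference near the smallest value the table can hold. αERKO-DES sample 4 was the low one for *Retn*, which encodes the adipokine resistin, at 0.23 FPKM (gap 0.837).

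The change with DES differed between genotypes, by the interaction term, for 257 of the 300 DEGs, against 54.0% of all tested genes. The αERKO change that chose the 300 is part of this term.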

How the results depend on the processing

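Beside the 300 DEGs, 91 that followed neither and 257 with an interaction, the 3 counts in that order were 150, 45 and 121 with no minimum FPKM, 141, 43 and 123 with a minimum of 5, 1096, 631 and 1018 with sample weights, 5, 3 and 5 under quantile normalization, 2, 1 and 2 at an adjusted p of at most 0.01, and 0, 0 and 0 with the muscle and adipose means as covariates, where limma left 978 genes at or under 0.05 before adjustment. The 8 αERKO samples alone gave 28 DEGs, of which 10 followed neither. The group that followed neither held 164 genes with r above 0.7 and 31 with r over the 8 αERKO samples. Without the WT-DES samples, an alternative chosen after seeing the data, there were 487 DEGs. Leaving out 1 αERKO sample gave 2 to 690 DEGs, 1 to 364 that followed neither and 2 to 649 with an interaction. The highest values came without αERKO-veh sample 1, the others over 1.5 times away without αERKO-veh sample 2 (3 DEGs), αERKO-veh sample 4 (2), αERKO-DES sample 1 (2), αERKO-DES sample 2 (58) and αERKO-DES sample 3 (2). Without αERKO-veh sample 3 there were 362 DEGs, of which 184 followed neither. Of the 91, 71 were among these 362. With the replicate block there were 274 DEGs, of which 249 were shared, 91 that followed neither and 240 with an interaction, and not every sample correlated best with its own number. The counts of DEGs under the pseudocount of 0.1 (395), no variance trend (276), median-ratio scaling (322), equal totals (246, of which 1.22% were higher), the fold from the log2 difference (271), the correction for transcript length (319) and without WT-veh sample 4 (336) were within 1.5 times. The causes of these changes were not tested.

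Of 2310 values of named genes under alternatives, 1470 kept their direction and side of the threshold, 789 kept the direction but no longer passed, 25 passed only then and 26 changed sign. Under quantile normalization the log2 change was −0.14 for *Acta1*, 0.091 for *Esr1* and −0.33 for *Svs4*. *Acta1* was at −0.096 with equal totals and −0.085 with the length correction. With covariates the sign turned for *Mylpf* (0.059), *Pvalb* (0.75), *Myh4* (0.34), *Eno3* (0.047), *Ckm* (0.57), *Tnnc2* (0.25), *Lpl* (0.020), *Dgat2* (0.093), *Plin1* (0.27), *Pparg* (0.29), *Scd1* (0.61), *Ucp1* (2.28), *Fasn* (0.93), *Sbp* (1.08) and *Pbsn* (0.26). Of these, *Mylpf*, *Pvalb*, *Myh4*, *Ckm* and *Tnnc2* are part of the muscle mean and *Lpl*, *Plin1* and *Pparg* of the adipose mean. Each of them was fitted on a mean that holds it, so a smaller or turned difference was partly built into the fit. With 1 sample left out, *Acta1* was at −0.025 without αERKO-veh sample 1, −0.039 without αERKO-DES sample 1 and −0.011 without αERKO-DES sample 3 (range −0.039 to 0.12). *Ltf* was at 0.00063 without αERKO-veh sample 4 and 0.014 without αERKO-DES sample 3 (range −0.59 to 0.014), and *Pbsn* at 0.0020 without αERKO-DES sample 4 (range −0.17 to 0.0020). Depth limits the genes with DES values near 0, where a fold cannot be given with any precision.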

Other observations

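Some genes known from urothelium, the stratified lining of the bladder and urethra, or from other stratified or airway epithelia were among the lower DEGs. This list of 9 genes was chosen after its values were seen. Of its 8 tested members 4 were lower and 0 higher, against 1.96% of all tested genes called lower. The count was 1 in the fit of the 8 αERKO samples alone, 2 with no minimum FPKM (of 9 then tested), and 0 under quantile normalization or without αERKO-veh sample 2, αERKO-veh sample 4 or any 1 of αERKO-DES samples 1 to 3. None of the 4 uroplakins on it, the defining proteins of urothelium, was a DEG: the mean FPKM in αERKO-veh and αERKO-DES was 48.0 and 11.8 for *Upk1a* (limma adjusted p = 0.0885), 91.5 and 84.2 for *Upk1b* (0.892), 44.2 and 66.6 for *Upk2* (0.544) and 5.82 and 2.0 for *Upk3a* (0.268). The 4 lower genes are known from other epithelia as well. *Krt4*, a keratin of stratified epithelium, was at 5.14, 36.4, 49.04 and 31 FPKM in αERKO-veh and at 3.14, 5.91, 2.01 and 5.29 FPKM in αERKO-DES (log2 change −2.35, limma adjusted p = 0.044). αERKO-veh sample 1 overlapped with αERKO-DES. *Gsdmc2*, of the gasdermin family, was at 4.13, 20.7, 18.6 and 17.8 FPKM in αERKO-veh and at 1.09, 2.90, 0.74 and 2.07 FPKM in αERKO-DES (log2 change −2.47, limma adjusted p = 0.0325). *Gsdmc3*, its neighbour in the family and a near copy whose reads the counting could split with it, was at 2.88, 18.8, 15.1 and 12.8 FPKM in αERKO-veh and at 1.05, 2.59, 0.61 and 1.90 FPKM in αERKO-DES (limma adjusted p = 0.0331). *Cyp2f2*, a cytochrome P450 known from airway epithelium, was at 11.8, 77.4, 75.8 and 41.01 FPKM in αERKO-veh and at 4.53, 7.58, 2.57 and 7.11 FPKM in αERKO-DES (log2 change −2.80, limma adjusted p = 0.0325). All 4 count as following muscle, with r of 0.88, 0.74, 0.72 and 0.86, although none is known as a muscle gene. In the wild type *Krt4* was at 3.38, 3.35, 3.58 and 18.4 FPKM with vehicle and at 51.6, 60.5, 62.2 and 98.1 FPKM with DES (interaction 5.74, limma adjusted p = 2.49e-05), and the WT groups did not overlap.

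Of 7 prostate secretion genes, also chosen after their values were seen, 3 were lower and 0 higher, against 1.96% of all tested genes called lower. The count was 0 under quantile normalization, with no minimum FPKM or without αERKO-veh sample 2, αERKO-veh sample 4, αERKO-DES sample 1, αERKO-DES sample 3 or αERKO-DES sample 4, 1 with the replicate block or without αERKO-DES sample 2, and 4 in the fit of the 8 αERKO samples alone. *5430419D17Rik* was at 34.3, 23.2, 19.5 and 14.8 FPKM in αERKO-veh and at 0.83, 4.07, 0.52 and 0.59 FPKM in αERKO-DES (log2 change −3.40, limma adjusted p = 0.0411). In the wild type it was at 6.63, 1.19, 33.2 and 96.5 FPKM with vehicle and at 0.52, 0.89, 0.4 and 0.84 FPKM with DES (interaction 0.18, limma adjusted p = 0.9).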
